A study of Mus musculus with 7 samples.

Results

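Motor proteins that walk along microtubules, the tubulins that form microtubules, and the enzymes that add amino acid side chains to tubulin were examined. The RNA came from testes of mice in which *Ctcf* was inactivated in spermatocytes, and of wild-type littermates. The members were every row of the deposited expression table in the classes Coding or Complex whose first gene symbol starts with Dnah, Dnaic, Dnal, Dync, Dynl, Dnaaf, Kif, Klc, Tuba, Tubb, Tubg, Tube, Tubd or Ttll. This gave 51 rows with 51 distinct symbols among 4102 coding rows and 7580 rows in all: 19 axonemal dyneins and their assembly factors, 4 cytoplasmic dyneins, 15 kinesins, 6 tubulins and 7 tubulin ligases.

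RNA of seminiferous tubules from 3 wild-type and 4 *Ctcf*-cKO mice was hybridized to 1 Affymetrix mouse transcriptome array (MTA 1.0) per mouse, from an input of 150 ng of total RNA. *Ctcf*-cKO stands for *Stra8-iCre-Ctcf* f/Δ: these mice carry 1 deleted and 1 floxed allele of *Ctcf*, the gene of a DNA-binding protein that organises chromatin, and a Cre recombinase driven by the *Stra8* promoter, which is active in spermatogonia and pre-leptotene spermatocytes. The wild-type littermates are listed without Cre as *Ctcf* f/f, wt/f or wt/wt, a mixture of genotypes that the labels do not resolve by mouse, and all mice were adults of what the study's methods write as a C56BL/6J background. Sertoli, Leydig and other somatic cells of the testis are not targeted by this Cre. The study found no CTCF staining in spermatocytes and spermatids of *Ctcf*-cKO testes, but still saw it in spermatogonia, Sertoli cells and Leydig cells. It also reported smaller testes in heterozygous mice. *Ctcf* itself had 0 rows among those analysed here, so the inactivation could not be checked in these values.

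The table holds 1 average log2 signal per genotype for each transcript cluster, the set of probes that is read together as 1 transcript, and it holds only clusters that the authors had already selected for a linear fold of 2 between genotypes and for their p. No value of a single array was analysed, so the spread between mice is not known here and no test between genotypes was run. Rows are called lower or higher by the *Ctcf*-cKO average minus the wild-type average on the log2 scale, where -1 is a 2-fold lower signal. Each probe set has its own response, so levels were compared between genotypes and not between genes.

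Axonemal dyneins are the motors that bend cilia and sperm tails: they sit in rows of outer and inner arms on the microtubule doublets of the axoneme, and each arm is built from heavy chains, which carry the motor, and from intermediate and light chains, after assembly in the cytoplasm with the help of assembly factors. Cytoplasmic dyneins carry cargo towards microtubule minus ends and, in growing tails, back from the tip by intraflagellar transport, whereas most kinesins walk the other way, and some kinesins build or disassemble the spindle of dividing cells. In the testis these proteins serve the meiotic spindles of spermatocytes and the manchette and flagellum of spermatids, whose tubulin carries long glutamate and glycine side chains added by ligases of the Ttll family.

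Among the 51 members, 42 (82.4%) had a lower average in *Ctcf*-cKO and 9 (17.6%) a higher one. Of all 4102 coding rows, 62.1% were lower and 37.9% were higher. The median log2 difference was -1.33 over the members and -1.12 over all coding rows. Since every row had been selected for a difference, these shares describe the selected rows and not the array, and the 51 members cannot be read as all genes of these families. When each difference was re-centred on the median of all coding rows, 35 members (68.6%) were below 0 and 16 above it, beside 2035 rows (49.6%) below and 2024 above for all coding rows. This moves every row by the same 1.12, so the rows that change sign are the lower rows with differences smaller in size than 1.12, and a row that keeps its sign shows no more than that its difference was larger. Among the members these were *Dnaaf1*, *Dnaaf2*, *Dynlrb2*, *Kifap3*, *Ttll10*, *Tubd1* and *Tuba3b*. The size of the differences was much like that of the table: the 42 lower members had a median of -1.36 (2.57-fold) against -1.29 (2.45-fold) for all lower coding rows, and the 9 higher members had a median of 1.24 (2.36-fold) against 1.33 (2.51-fold). Past a linear fold of 3 there were 10 members (19.6%), 8 of them lower and 2 higher, where 18.0% of all coding rows passed this fold, 7.87% as lower and 10.1% as higher rows. After re-centring, 0 lower and 9 higher members were past this fold, beside 1 lower and 1553 higher rows of all coding rows. The shift carries every higher coding row past the fold, so these counts follow from the shift and say nothing about the members.

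**Figure D1:**
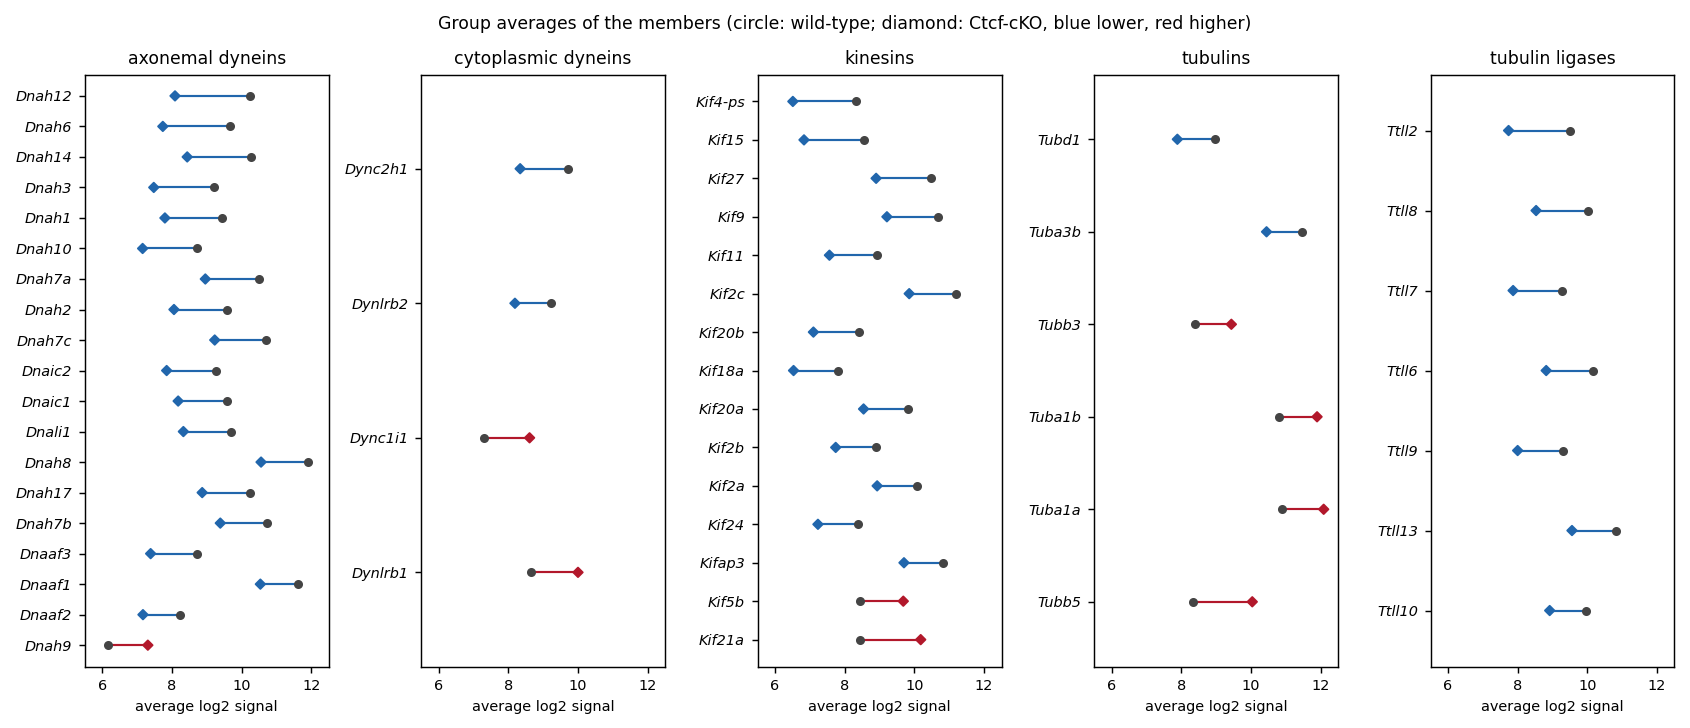
Group averages of the log2 signal (x axis) of each member (y axis), in 1 panel per family; the circle is the authors' wild-type average, the diamond the authors' Ctcf-cKO average, blue where it was lower and red where it was higher, and no error can be drawn from averages. Of the 51 lines, 42 point to lower and 9 to higher signal in Ctcf-cKO; re-centring on the median of all coding rows leaves 35 lower and 16 higher.

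The families did not divide alike between the directions. Lower in *Ctcf*-cKO were 18 of 19 axonemal dynein rows, 13 of 15 kinesins, 7 of 7 tubulin ligases, 2 of 4 cytoplasmic dyneins and 2 of 6 tubulins. After the same re-centring these counts were 16, 12, 6, 1 and 0. The medians were -1.43 for the axonemal dyneins, -1.28 for the kinesins, -1.35 for the ligases, 0.13 for the cytoplasmic dyneins and 1.07 for the tubulins. No test of these counts was run, because the rows of a family are not replicates of a condition.

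**Figure D2:**
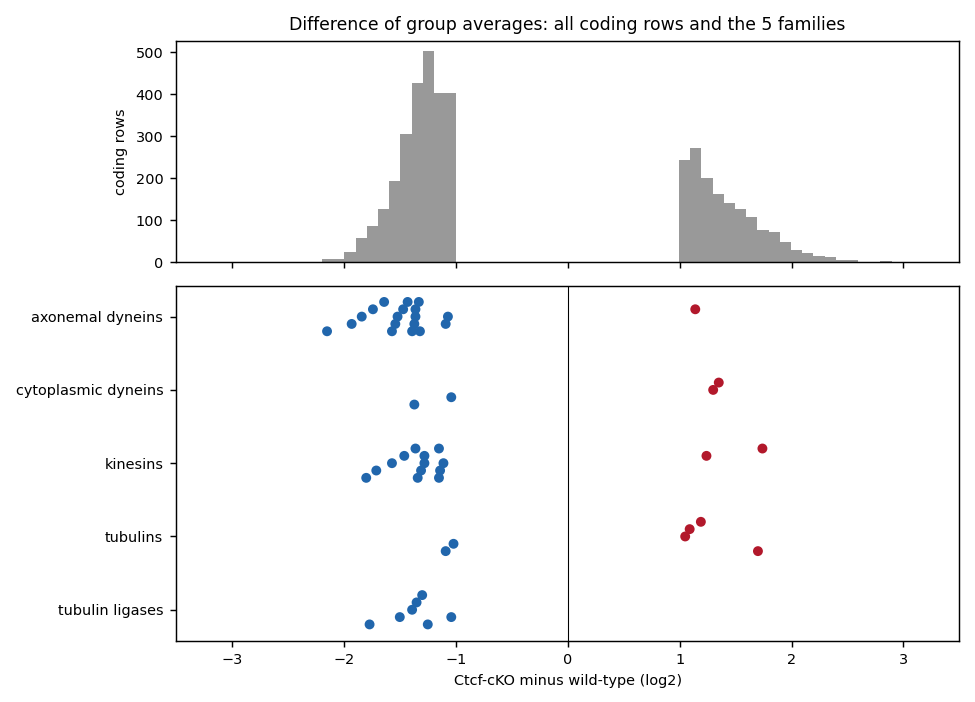
Upper panel: histogram of the log2 difference (Ctcf-cKO minus wild-type, x axis) over all 4102 coding rows, with the number of rows on the y axis; the gap around 0 is the authors' selection for a linear fold of 2. Lower panel: 1 point per member on the same x axis, by family, blue for lower and red for higher, with 18 of 19 axonemal dyneins but 2 of 6 tubulins on the lower side (16 and 0 once re-centred on the median of all coding rows).

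The axonemal dyneins held the largest difference among the members. The row of *Dnah12*, an inner-arm heavy chain (chr14:26693274-26891703, plus strand, mm10), averaged 10.24 in wild-type against 8.09 in *Ctcf*-cKO, a log2 difference of -2.15 or 4.44-fold. The row covers the annotated gene and is read by 782 probes. *Dnah6*, another inner-arm heavy chain (chr6:73017606-73221651, minus strand), went from 9.67 to 7.74, a 3.81-fold lower average. All 9 inner-arm heavy chains with a row were lower, with a median difference of -1.57 and a range from -2.15 to -1.33. These were *Dnah3* (9.22 in wild-type against 7.48 in *Ctcf*-cKO), *Dnah1* (9.44 and 7.80), *Dnah10* (8.73 and 7.16), *Dnah7a* (10.50 and 8.96), *Dnah2* (9.58 and 8.06), *Dnah7c* (10.70 and 9.23) and *Dnah7b* (10.72 and 9.39) beside *Dnah12* and *Dnah6*. The 3 *Dnah7* genes are close copies of each other, *Dnah7b* and *Dnah7c* lie side by side on chromosome 1, and the row of *Dnah7b* also lists *Dnah7c*, so their signals cannot be fully told apart. *Dnah14*, a heavy chain whose place in the axoneme was not assigned here, averaged 10.28 in wild-type against 8.44 in *Ctcf*-cKO (-1.84).

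Outer-arm heavy chains went both ways. *Dnah8*, an outer-arm heavy chain of the sperm tail (chr17:30624354-30875264, plus strand), averaged 11.92 in wild-type against 10.56 in *Ctcf*-cKO, and *Dnah17*, its partner in sperm, averaged 10.23 and 8.87. Both log2 differences were -1.36. *Dnah9*, an outer-arm heavy chain known from the cilia of airways and other multiciliated epithelia (chr11:65831282-66168551, minus strand), averaged 6.17 in wild-type against 7.31 in *Ctcf*-cKO, a 2.20-fold higher signal and the only higher row among the 13 heavy chains. Of 4 genes that mark multiciliated cells, *Foxj1*, *Mcidas*, *Gmnc* and *Ccno*, none had a row. *Dnah5* and *Dnah11*, which belong to the same airway type of outer arm, had no row either and therefore no value here.

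The other axonemal components were all lower. The outer-arm intermediate chains *Dnaic2* and *Dnaic1* averaged 9.28 and 9.57 in wild-type and 7.85 and 8.18 in *Ctcf*-cKO. *Dnali1*, a light intermediate chain of the inner arms, went from 9.70 to 8.33. These 3 differences lay between -1.43 and -1.37, closer together than those of the heavy chains. Of the factors that assemble dynein arms in the cytoplasm, *Dnaaf3* went from 8.71 to 7.39, *Dnaaf1* from 11.63 to 10.54 and *Dnaaf2* from 8.24 to 7.17. *Dnaaf1* (-1.09) and *Dnaaf2* (-1.07) were the lower axonemal rows with the smallest differences, and their values after re-centring were 0.03 and 0.05.

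Promoters of members from this and the other families are printed to show the letters behind the motif counts given further on. Each window runs from 250 bases before to 50 bases after the RefSeq start of the gene (assembly GRCm38.p6, the build also called mm10), 5′ to 3′ on the strand of the gene. *Dnah10* (chr5:124724835-124725134, plus strand) was chosen for its pair of matches to GTTGCC, shown in capitals, with first bases at -20 and 10, where position 0 is the annotated start. GTTGCC is an arm of the X-box, the element bound by RFX factors at genes of cilia.
Dnah10: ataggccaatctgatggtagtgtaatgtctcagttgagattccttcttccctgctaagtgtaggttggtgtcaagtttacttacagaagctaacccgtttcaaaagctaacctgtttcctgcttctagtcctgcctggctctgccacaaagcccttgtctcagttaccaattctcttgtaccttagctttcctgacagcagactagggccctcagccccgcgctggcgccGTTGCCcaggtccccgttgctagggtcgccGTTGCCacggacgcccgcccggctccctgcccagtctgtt

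*Dnah6* (chr6:73221582-73221881, minus strand), the inner-arm heavy chain with the next largest difference after *Dnah12*, was chosen for the cyclic AMP response element TGACGTCA, shown in capitals with its first base at -175. This element is the target of CREB and of CREM, a factor of round spermatids.
Dnah6: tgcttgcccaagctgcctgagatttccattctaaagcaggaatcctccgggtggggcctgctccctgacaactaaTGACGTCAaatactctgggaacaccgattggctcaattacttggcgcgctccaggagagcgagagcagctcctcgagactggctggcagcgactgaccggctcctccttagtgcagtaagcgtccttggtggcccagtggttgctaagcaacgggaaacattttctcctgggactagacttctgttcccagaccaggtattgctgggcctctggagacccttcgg

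The cytoplasmic dyneins were few and split. *Dync2h1*, the heavy chain of dynein-2, which returns intraflagellar transport trains from the tip of the axoneme (chr9:6928502-7184512, minus strand), averaged 9.71 in wild-type against 8.34 in *Ctcf*-cKO, a log2 difference of -1.37 or 2.58-fold. *Dync1i1*, an intermediate chain of dynein-1, the general minus-end motor, averaged 7.31 in wild-type against 8.61 in *Ctcf*-cKO, a 2.46-fold higher signal. The roadblock light chains, small dimeric subunits that occur in both complexes, went in opposite directions. *Dynlrb1* (chr2:155236533-155250277, plus strand) averaged 8.65 in wild-type against 10.00 in *Ctcf*-cKO (1.35, or 2.55-fold higher). *Dynlrb2* averaged 9.23 and 8.19, a log2 difference of -1.04 or 2.06-fold lower, and of 0.08 after re-centring. The heavy chain of dynein-1, *Dync1h1*, had no row, nor had any of 5 Dynlt and 2 Dynll light chain genes.

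The promoters of *Dynlrb2* (chr8:116504765-116505064, plus strand) and *Dync1i1* (chr6:5725389-5725688, plus strand) are shown because each holds GTTGCC, in capitals at -51 and at -94, although the averages of these genes differed in opposite directions. Only this arm was matched, and the letters after it are not alike: tagcaac in *Dynlrb2* and catggag in *Dync1i1*. In *Dynlrb2* the letters agcaac differ from ggcaac, the inverted copy of the arm, only in the first letter. This spacing was not searched, so *Dynlrb2* may hold an X-box with both arms that was not counted.
Dynlrb2: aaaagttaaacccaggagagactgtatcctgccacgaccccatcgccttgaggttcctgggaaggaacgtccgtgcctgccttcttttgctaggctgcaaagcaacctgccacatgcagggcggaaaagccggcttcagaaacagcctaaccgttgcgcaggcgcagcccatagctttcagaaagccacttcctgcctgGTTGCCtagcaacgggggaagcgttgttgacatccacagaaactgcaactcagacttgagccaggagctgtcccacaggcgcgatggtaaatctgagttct
Dync1i1: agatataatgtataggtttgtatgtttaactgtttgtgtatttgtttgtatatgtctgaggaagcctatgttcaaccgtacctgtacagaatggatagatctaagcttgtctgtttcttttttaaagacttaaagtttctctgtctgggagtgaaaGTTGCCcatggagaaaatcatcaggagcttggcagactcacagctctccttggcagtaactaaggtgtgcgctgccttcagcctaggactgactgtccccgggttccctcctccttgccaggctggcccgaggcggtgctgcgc

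At *Dync1i1* the table also holds rows of shorter non-coding clusters. On the strand of the gene there were 3 unnamed clusters, with differences from 1.57 to 1.93, the same direction as the gene. On the opposite strand an unnamed cluster went from 7.26 to 5.86 and *1700019G24Rik* from 8.68 to 6.89, the other direction. Over all members, 14 non-coding rows overlapped 8 members, in 15 pairs. All 9 pairs on the same strand had the direction of their member, as had 4 of 6 pairs on opposite strands. The remaining 2 were those at *Dync1i1*. Among the 4, the same non-coding row was paired with both *Tuba1a* and *Tuba1b*. Such pairs were not counted for other coding rows, so these counts only describe the members. Rows on the same strand within a gene can read the same transcript and are no independent measurement. On the opposite strand of *Dnah3* lies the coding row of *Lyrm1*, which averaged 7.60 in wild-type against 6.28 in *Ctcf*-cKO.

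Kinesins of cell division were lower in *Ctcf*-cKO in every case that had a row. Of 48 annotated kinesin genes 34 had no row and so no value here, among them *Kif14*, *Kif18b*, *Kif22* and *Kif23*. *Kif11*, which slides spindle microtubules apart, averaged 8.92 in wild-type against 7.56 in *Ctcf*-cKO. *Kif15*, which works beside it on the spindle, went from 8.54 to 6.83 (3.27-fold lower), the largest difference among the lower kinesin genes proper. *Kif18a*, which limits the length of kinetochore microtubules, went from 7.81 to 6.53. *Kif20a* and *Kif20b*, which act in cytokinesis, averaged 9.82 and 8.41 in wild-type and 8.54 and 7.10 in *Ctcf*-cKO. The Kif2 proteins do not walk but take microtubules apart from their ends. *Kif2c* (chr4:117159634-117182639, minus strand) averaged 11.19 in wild-type against 9.85 in *Ctcf*-cKO, *Kif2a* averaged 10.08 and 8.93, and *Kif2b*, with 30 probes, averaged 8.89 and 7.74. Together these 8 rows had a median of -1.29. *Kif24*, a relative of the Kif2 genes that acts at centrioles, went from 8.37 to 7.23.

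Kinesins linked to the axoneme were lower as well. *Kif27*, whose row also lists the microRNA gene *Mir6369*, went from 10.47 to 8.90, and *Kif9*, a kinesin of motile axonemes, went from 10.67 to 9.21. *Kifap3*, the subunit that joins the kinesin-2 motor of intraflagellar transport to its cargo, averaged 10.81 in wild-type against 9.70 in *Ctcf*-cKO (-1.11, and 0.01 after re-centring). *Kif3a* and *Kif3b*, the motor subunits it binds, had no row. The row with the symbol *Kif4-ps*, a pseudogene of *Kif4* read by 30 probes (chr12:101145609-101149758, plus strand), averaged 8.31 in wild-type against 6.51 in *Ctcf*-cKO, the largest difference of any kinesin row (-1.80, 3.48-fold). *Kif4* itself had no row, and the signals of a gene and its pseudogene may not be separable by such probes.

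A pair of kinesins was higher. *Kif21a*, a kinesin that restrains microtubule growth (chr15:90933275-91049951, minus strand), averaged 8.44 in wild-type against 10.18 in *Ctcf*-cKO, higher by 1.74 on the log2 scale or 3.34-fold, the largest positive difference among the members. *Kif5b*, the widely expressed heavy chain of conventional kinesin, went from 8.44 to 9.68 (2.36-fold higher). None of the 4 kinesin light chain genes (*Klc1* to *Klc4*) had a row.

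The tubulins were the family with more higher than lower rows. *Tubb5*, the beta-tubulin of most dividing and somatic cells (chr17:35833920-35838306, minus strand), averaged 8.34 in wild-type against 10.04 in *Ctcf*-cKO, higher by 1.70 or 3.25-fold. *Tuba1a* averaged 10.90 and 12.09, and its neighbour on chromosome 15, *Tuba1b*, averaged 10.81 and 11.90. *Tubb3*, best known from neurons, went from 8.39 to 9.44. Alpha-tubulin genes have near-identical coding sequences and pseudogenes, the row of *Tuba1b* also lists *Gm5620*, and signal could have been shared among them. A non-coding row that carries the symbol *Tuba1c* but lies on chromosome 13 (chr13:112594407-112594627, 30 probes) averaged 11.68 and 12.73 and was not counted.

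Lower tubulins were *Tubd1*, the delta-tubulin of centrioles (chr11:86544991-86567360, plus strand), with 8.98 in wild-type against 7.89 in *Ctcf*-cKO, and *Tuba3b*, an alpha-tubulin of the testis (chr6:145615757-145621479, plus strand), with 11.47 and 10.45. The row of *Tuba3b* also lists *Tuba3a*. Their differences of -1.09 and -1.02 were near the authors' limit for a row and became 0.03 and 0.10 after re-centring. The promoter of *Tubb5* (chr17:35838252-35838551, minus strand) is printed as that of the tubulin with the largest difference. Its window has no match to GTTGCC or TGACGTCA, so it has no capitals. The window does hold AGGNGGC, the shortest form of the CTCF core counted further on.
Tubb5: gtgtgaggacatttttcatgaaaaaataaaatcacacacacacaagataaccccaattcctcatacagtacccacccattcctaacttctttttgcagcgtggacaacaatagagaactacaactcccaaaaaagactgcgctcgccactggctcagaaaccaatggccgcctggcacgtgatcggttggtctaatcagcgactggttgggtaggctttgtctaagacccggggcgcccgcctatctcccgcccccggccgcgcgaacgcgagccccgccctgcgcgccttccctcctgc

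All 7 tubulin ligases with a row were lower, with *Ttll10* above 0 after re-centring. The largest difference was that of *Ttll2* (chr17:7350904-7352696, minus strand), read by 30 probes, with 9.51 in wild-type against 7.74 in *Ctcf*-cKO (-1.77, 3.41-fold). The ligases that build glutamate side chains were *Ttll13* (chr7:80246376-80260821, plus strand; 10.81 and 9.56), *Ttll6* (10.17 and 8.82), *Ttll7* (9.26 and 7.87) and *Ttll9* (9.30 in wild-type, with a difference of -1.30), with differences from -1.39 to -1.25. The ligases that add glycine, a modification typical of axonemes, were *Ttll8* (10.03 and 8.53), whose row also lists *Gm20621*, and *Ttll10* (9.96 and 8.92). *Ttll10* had the smallest difference of the family, -1.04, which was 0.08 after re-centring. The ligases *Ttll1*, *Ttll3*, *Ttll4*, *Ttll5*, *Ttll11* and *Ttll12* had no row.

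The promoter of *Ttll6* (chr11:96133536-96133835, plus strand) is shown because it holds 2 matches, in capitals at -95 and -21, to a form of the core of the CTCF motif that has fewer fixed letters than its strict form, both on the opposite strand of the gene.
Ttll6: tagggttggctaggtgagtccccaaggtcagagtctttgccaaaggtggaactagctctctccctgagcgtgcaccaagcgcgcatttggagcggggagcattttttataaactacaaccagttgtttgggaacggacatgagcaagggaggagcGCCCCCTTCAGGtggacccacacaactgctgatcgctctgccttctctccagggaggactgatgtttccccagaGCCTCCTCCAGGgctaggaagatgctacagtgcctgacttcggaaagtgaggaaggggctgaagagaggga

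How much of each family reached the table was read against the RefSeq annotation. Of 129 protein-coding genes with these name starts, 50 (38.8%) had a row, and the remaining member is the pseudogene *Kif4-ps*. Of all 21900 annotated protein-coding genes, matched by symbol in the same way, 3122 (14.3%) had a coding row, or 15.7% when older names are matched too. The share was 70.4% for the axonemal dyneins (19 of 27), 53.8% for the ligases (7 of 13), 29.2% for the kinesins (14 of 48), 25.0% for the cytoplasmic dyneins (4 of 16) and 24.0% for the tubulins (6 of 25). Of the Dnah heavy chains alone, 13 of 15 had a row. Symbols limit this count: *Dnaaf4* and *Dnaaf6* are newer names of *Dyx1c1* and *Pih1d3*, which had rows under the older names, outside the rule, and were lower (9.24 and 7.81 for *Dyx1c1*, 6.96 and 5.57 for *Pih1d3*). A gene without a row may have differed by less than the authors' fold, have missed their p or have no probes read under its symbol.

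**Figure D3:**
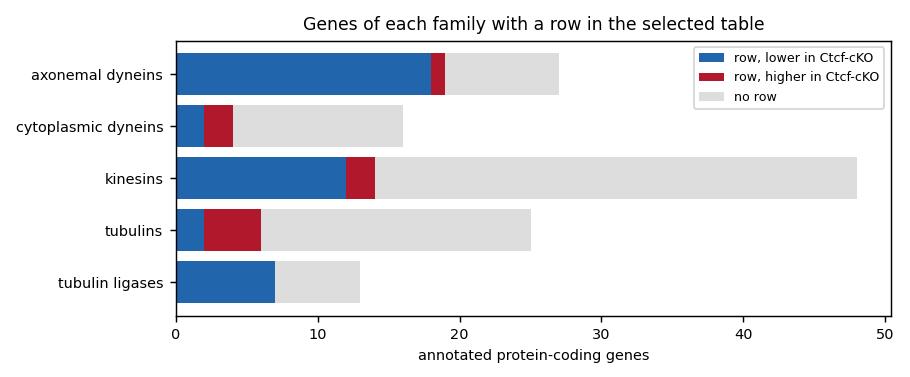
Number of annotated protein-coding genes of each family (x axis), split into genes with a lower row (blue), genes with a higher row (red) and genes with no row (grey). Rows were found for 19 of 27 axonemal dyneins (70.4%) and 6 of 25 tubulins (24.0%), beside 14.3% of all annotated protein-coding genes; once re-centred on the median of all coding rows, 16 axonemal dyneins and 0 tubulins were on the lower side.

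Annotation that the rule did not use was compared between the directions. Gene Ontology component terms for cilium, axoneme or sperm principal piece were given in the table to 25 of 42 lower and 2 of 9 higher members. Of these, 16 lower and 1 higher were axonemal dyneins, so the terms largely follow the family names. Spindle or kinetochore terms were given to 8 of 42 lower members, all of them kinesins, and to 0 of 9 higher members. The shares of these terms over all lower and higher coding rows were not counted, so the counts only describe the members. The table also lists the body sites in which UniGene found transcripts of a gene. Lower members had a median of 7 sites (1 to 25) and higher members a median of 29 (6 to 37), beside medians of 2 for all lower and 22 for all higher coding rows with such a list. Testis was among the sites for 39 of 42 lower (92.9%) and 7 of 9 higher members (77.8%). The shares for all coding rows with such a list were 95.2% of lower and 80.5% of higher rows, so this does not set the members apart. Lower rows thus had fewer sites than higher rows both among the members and in the whole table. The members were spread over 17 chromosomes, with 0 on X or Y.

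Genes that work with these families but fall outside the name rule were taken from 6 written lists of 115 genes. Of the 40 with a row, 38 were lower and 2 higher, where 62.1% of all coding rows were lower. By symbol, 14.3% of all annotated protein-coding genes had a coding row. The lists were written with earlier results of these data known, so their counts are no independent support for the families. Axonemal dynein assembly and docking had rows for 14 of 21 genes, all lower with a median of -1.45, the largest being *Armc4*, which docks outer arms (8.58 in wild-type, 6.87 in *Ctcf*-cKO). Intraflagellar transport had rows for 12 of 24 genes, all lower with a median of -1.23, from *Ttc30a2* (-1.47) to *Ift122* (-1.01). After re-centring, *Ift140*, *Ift74*, *Ift57*, *Traf3ip1* and *Ift122* were above 0.

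The 4 remaining lists had few rows. Tubulin chaperones and modifiers had rows for 6 of 21 genes, 5 lower, of which *Agbl4*, a carboxypeptidase that shortens glutamate chains, differed most (9.24 and 7.65), while the tubulin deacetylase *Hdac6* was higher (8.29 and 9.97, or 3.20-fold). Severing and plus-end proteins had 3 of 18, all lower: *Katnal2*, a katanin (8.78 and 7.14), *Fignl1*, a fidgetin-like ATPase (8.24 and 6.99), and *Spast*, spastin (9.56 and 8.51). Of 8 genes listed as kinesin cargo adaptors 3 had a row, the lower *Cenpe* (9.46 and 7.99), itself a kinesin of the kinetochore with a name outside the rule, the lower adaptor *Mapk8ip2* (8.79 and 7.64) and the higher adaptor *Trak1* (8.12 and 9.26). Of 23 dynein partners 2 had a row, *Tctex1d2*, a light chain of dynein-2 (9.58 and 8.39), and the cargo adaptor *Hook1* (11.14 and 10.00).

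Markers of the cell types of the testis, also listed with earlier results of these data known, moved with both groups of members. Round spermatid markers had rows for 9 of 9 genes, all lower, with differences from -1.60 to -1.06, and primary spermatocyte markers for 8 of 9, all lower, from -1.57 to -1.04. Of 10 markers of elongating spermatids, 2 had a row, both lower (*Prm3* -1.04, *Akap4* -1.02). Somatic markers had rows for 17 of 27 genes and all 17 were higher: 5 of 6 for Leydig cells (1.39 to 2.97), 4 of 6 for Sertoli cells (1.59 to 2.28), 3 of 5 for peritubular myoid cells (1.06 to 1.42), 3 of 5 for macrophages (1.09 to 1.81) and 2 of 5 for endothelial cells (1.12 to 1.13). The spermatogonial marker *Kit*, which Leydig cells also express, was higher (7.81 and 10.09), and the other 5 spermatogonial markers had no row. The sample titles say testes and the study's methods say seminiferous tubules, a bulk tissue in either case. Fewer cells of a type and less RNA per cell therefore cannot be told apart for any member. Of the 42 lower members, 31 (73.8%) lay between -1.60 and -1.06, the range of the round spermatid markers, 8 (19.0%) were lower still and 3 less low. Of all 2549 lower coding rows, 79.2% lay in this range and 11.7% were lower still, so lying within it does not set the members apart. The part of cell composition in any member's difference was not tested.

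**Figure D4:**
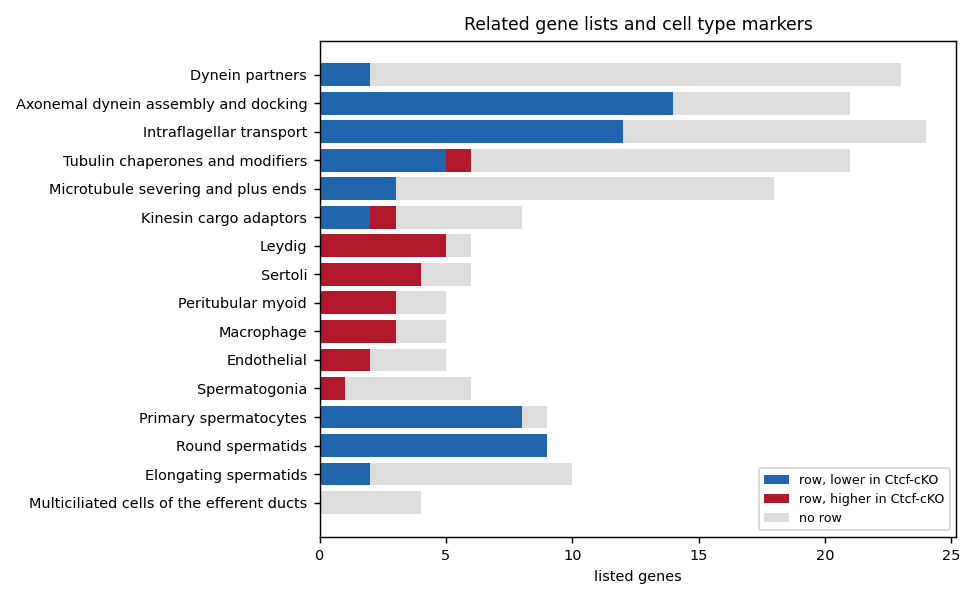
Number of listed genes (x axis) with a lower row (blue), a higher row (red) or no row (grey), for 6 lists of genes related to the families and 10 lists of cell type markers (y axis). Germ cell lists from spermatocytes on are blue and somatic lists red. Of the 20 germ cell markers with a row 19 were lower, and all 17 somatic markers with a row were higher. Differences are not re-centred, and all lists were written with earlier results of these data known.

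Promoter windows were matched for 46 of the 51 members and compared with those of 27025 mouse genes in the same RefSeq table. This set was not limited to protein-coding genes, of which 21900 were annotated, so its shares mix gene classes. Both strands were searched, and a gene counted once if any of its windows in the table held the motif. *Dnah3*, *Dnaaf1*, *Kif5b*, *Kif20a* and *Kif4-ps* were not in that table. The shortest form of the CTCF core searched was AGGNGGC, and longer forms extend it at its 5′ side. The strict core was in 0 of 46 members and in 1.05% of all genes. The core of fewer fixed letters, which includes the strict one, was in 3 members (6.52%: *Kif2a*, *Kifap3* and *Ttll6*) and in 3.96% of all genes. AGGNGGC alone was in 39.1% of members and 31.8% of all genes. The X-box with both arms was searched as the arm GTTNCC joined across the letters AT to its inverted copy. This form was in 0 members and 0.152% of all genes. With any letters in place of AT it was in 0 members and 0.529% of all genes. Arms at other spacings or with other letters were not searched, such as GTTGCCtagcaac in *Dynlrb2* and gttgctaagcaac in *Dnah6*, both printed above. These counts therefore do not cover every form of the X-box.

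The X-box arm GTTGCC, as printed above for *Dnah10*, *Dynlrb2* and *Dync1i1*, was in 16 members (34.8%) and in 14.1% of all genes. It was found in 15 of 38 lower and 1 of 8 higher members with a window, and by family in 6 of 17 axonemal dyneins, 3 of 4 cytoplasmic dyneins, 4 of 12 kinesins, 3 of 7 ligases and 0 of 6 tubulins. The axonemal dyneins with it include the close copies *Dnah7a*, *Dnah7b* and *Dnah7c*. GTTGCC was singled out from 26 motifs after the counts were seen, and gets no test. The looser arm GTTNCC, which includes it, was in 63.0% of members and 48.8% of all genes. The element TGACGTCA was in *Dnah6* and *Kif18a* (4.35%) and in 2.03% of all genes, and its shortest form TGACG was in 21.7% of members and 23.0% of all genes. In 40 of the 46 members the annotated start lay within 250 bases of the 5′ end of the row, and 13 of these 40 held GTTGCC. In *Dnah12*, *Dnah7c*, *Dnah8*, *Dync2h1*, *Kif2c* and *Ttll10* it lay farther away, up to 8597 bases, so the window may not be the promoter used in the testis. A match of letters is a description and not a bound site.

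**Figure D5:**
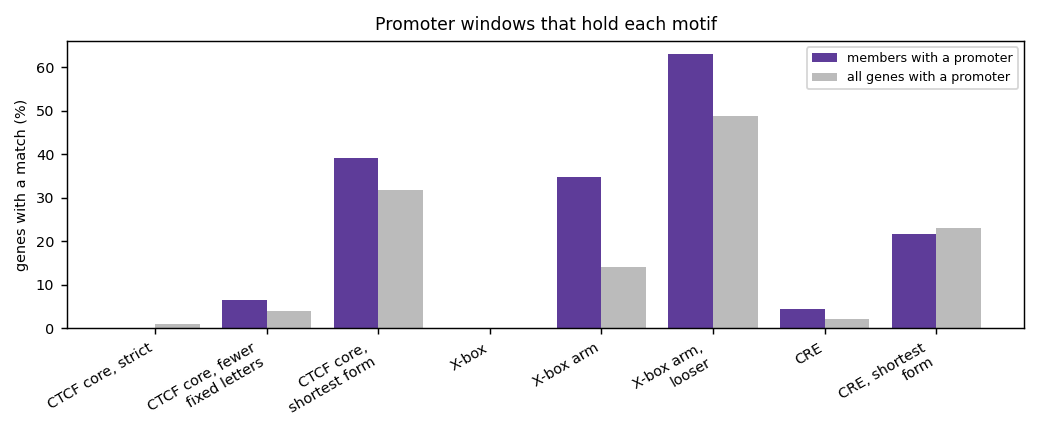
Percentage of genes (y axis) whose promoter window of 300 bases holds each motif (x axis), for the 46 members with a window (purple) and all 27025 genes with a window, not only protein-coding ones (grey). The X-box arm GTTGCC stood at 34.8% and 14.1%, the strict CTCF core at 0 and 1.05%.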

How the data were processed

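Affymetrix MTA 1.0 arrays of 3 wild-type and 4 *Ctcf*-cKO mice were analysed from 1 deposited table. Per the submitters' processing notes, arrays were processed with Affymetrix Expression Console 1.4.1, RMA (robust multi-array averaging) and Transcriptome Analysis Console 3.0 on build mm10. For each transcript cluster, the authors deposited a log2 signal per genotype, a bi-weight average over its arrays, with the number of probes and annotation. Other columns of the table hold the authors' fold changes, p and adjusted p, on which rows had been selected, and were not used. Groups were taken from the sample titles.

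Differences were computed as the *Ctcf*-cKO average minus the wild-type average with Python 3.11.15, numpy 2.4.6, pandas 2.3.3 and matplotlib 3.10.9, and linear folds from them. Members, gene lists and motifs were chosen with earlier results of these data known. Every member was named; fuller values were given for the largest difference in each direction and the highest wild-type average of a family, the last a rule for choosing rows and not a comparison of levels. The selection and counts were tested on a simulated table, with 4 checks passed. Gene positions and promoters came from RefSeq (GRCm38.p6), and 51 of 51 rows overlapped the annotated gene. With 3 and 4 arrays a genotype, precision is limited by the number of arrays. Alternatives were class Coding alone, any symbol of a row, a signal of at least 6, each gene once, re-centring, a fold of 3, no rows open to near-identical copies, and a looser CTCF motif.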

Additional observations from a re-analysis of the deposited data

How the results depend on the processing

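No paired analysis was possible because the table holds averages per genotype and no value of a single array; leaving out mice in turn and a replicate block were not run for the same reason. With the class Coding alone, 24 rows remained, 21 lower and 3 higher, with a median of -1.31 and 6 past a linear fold of 3. Re-centring on the median of all coding rows (-1.12) gave 35 lower and 16 higher members and a median of -0.21. Past a fold of 3 were 9 members, 0 lower and 9 higher in place of 8 and 2. The same shift put all 1553 higher coding rows and 1 lower coding row past that fold, so these counts follow from the shift. All coding rows were selected for their fold, so their median is not the median of the array. Leaving out rows open to near-identical copies, an alternative added after seeing the data, left 42 rows, 35 lower and 7 higher, with a median of -1.31 and 9 past a fold of 3. A linear fold of 3 in place of 2 kept 8 lower and 2 higher members. Matching any symbol, a log2 average of at least 6 and counting each gene once each gave 42 lower and 9 higher members, a median of -1.33 and 10 past a fold of 3. The CTCF core of fewer fixed letters was in 3 members in place of 0. The authors' p were not used and no single-array values were analysed, so differences were not set against replicate error here, and genes with no row could not be assessed.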
